A study of Mus musculus with 7 samples.

Results

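The enzymes described here build and trim the sugar chains of proteins that pass through the secretory pathway, and they were followed in prostates of mice with an active Notch1 transgene. They are the genes whose symbols begin with Galnt, B4galt, B3galt, B3gnt, St3gal, St6gal, Mgat, Man1, Man2 or Fut and whose prostate signal was marked as well above background on 3 or more of the 7 arrays. Of 79 such genes on the array, 68 met this rule, among 13129 named genes that met the same signal requirement. Enough values for a test remained for 59 of the 68 members. The 59 comprise 8 mannosidases, 7 Mgat enzymes, 7 fucosyltransferases, 8 galactosyltransferases of the B4galt and B3galt families, 4 B3gnt enzymes, 10 sialyltransferases and 15 Galnt enzymes. Not every member is a Golgi enzyme: Man2b1 and Man2b2 are lysosomal mannosidases that break glycans down, Man2c1 acts in the cytosol, and Man1b1 is known as a mannosidase of the endoplasmic reticulum.

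Total RNA of whole prostate from 7 samples was compared on 2-colour Agilent mouse arrays. All mice were of C57Bl/6 background and carried ROSA(N1IC), an allele in which the Notch1 intracellular domain stays silent until Cre acts. Control prostate, 4 samples, was taken from such mice without Cre, labelled as wild-type for the domain. PB-NICD prostate, 3 samples, was taken from ARR2PB-Cre;ROSA(N1IC) mice, in which Cre is driven by a probasin-derived promoter active in prostate epithelium, and which, per the labels, develop prostatic intraepithelial neoplasia. Ages are not given in the sources used here, nor whether each sample is 1 animal or a pool. The p-values therefore measure the spread between these samples, which may in part be technical. The prostate cDNA carried the red Alexa Fluor dye, and Stratagene Universal Mouse Reference RNA carried the green one, without dye swaps. Every value below is a log2 ratio of prostate over reference, and a change is the difference of group means on that scale, negative where PB-NICD is lower. A ratio compares samples for the same gene and gives no order of level between genes.

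Proteins receive a preformed high-mannose glycan on asparagine in the endoplasmic reticulum, and after folding they move to the Golgi. There Man1a and its relatives trim mannose, Mgat1 adds the first antenna, Man2a1 or Man2a2 removes further mannose, and Mgat2 and the Mgat4 enzymes start more antennae. Fut8 adds the core fucose, B4galt enzymes add galactose, B3gnt enzymes extend repeats of galactose and N-acetylglucosamine, and sialyltransferases and other fucosyltransferases cap the ends. Galnt enzymes start a different class, the O-linked glycans of mucin type, on serine and threonine. The prostate epithelium secretes large amounts of glycoprotein, so this route is heavily used in the tissue.

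The RefSeq promoter table of GRCm38.p6 held 44 of the tested members. The 4 sequences shown belong to enzymes of different steps that were lower in PB-NICD prostate, since genes that move together invite a look at their starts. Each is the 250 bases before the annotated start, and capitals mark CCACG or its reverse complement CGTGG, the constant end of the endoplasmic reticulum stress response element.
Man1a (chr10:54075738-54075987, minus strand): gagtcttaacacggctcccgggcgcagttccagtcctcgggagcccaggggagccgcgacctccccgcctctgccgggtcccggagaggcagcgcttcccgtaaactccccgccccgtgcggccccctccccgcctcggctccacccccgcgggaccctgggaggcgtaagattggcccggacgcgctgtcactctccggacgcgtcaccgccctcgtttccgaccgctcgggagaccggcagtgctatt
Man2a1 (chr17:64601399-64601648, plus strand): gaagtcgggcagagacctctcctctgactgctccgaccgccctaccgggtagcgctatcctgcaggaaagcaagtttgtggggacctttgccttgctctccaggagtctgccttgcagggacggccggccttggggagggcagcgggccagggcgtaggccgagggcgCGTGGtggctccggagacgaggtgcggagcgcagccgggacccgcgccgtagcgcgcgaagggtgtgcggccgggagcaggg
Fut8 (chr12:77238489-77238738, plus strand): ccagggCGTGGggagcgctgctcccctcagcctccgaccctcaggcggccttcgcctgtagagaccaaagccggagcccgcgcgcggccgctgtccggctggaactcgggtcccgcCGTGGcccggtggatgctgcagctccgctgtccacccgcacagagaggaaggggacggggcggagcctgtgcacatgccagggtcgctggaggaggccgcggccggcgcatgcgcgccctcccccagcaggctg
B3gnt7 (chr1:86302971-86303220, plus strand): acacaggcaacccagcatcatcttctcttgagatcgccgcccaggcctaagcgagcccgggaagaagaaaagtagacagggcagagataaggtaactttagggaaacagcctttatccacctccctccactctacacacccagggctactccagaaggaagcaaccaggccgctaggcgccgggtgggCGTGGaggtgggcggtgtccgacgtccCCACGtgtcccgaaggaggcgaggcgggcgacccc
Over windows of 300 bases that also take in the first 50 transcribed bases, CCACG was present on either strand in 21 of the 44 tested members with an entry, 47.7%, against 35.5% of all 27025 genes in the table. Among called members it was found for 5 of 8, namely Man2a1, Fut8, B4galt1, B3gnt7 and Man2b2. It was absent for Man1a, Mgat2 and B3gnt8. Man2b2 and B3gnt8 were higher in PB-NICD prostate and the others lower, so the motif did not follow the direction of change. The Man1a window printed above has no CCACG, and the Man2a1 window has it 82 bases before the start. In B3gnt7 it begins 62 and 35 bases before the start. Fut8 has several annotated starts, and the window printed holds it 244 and 134 bases upstream, whereas the other 3 Fut8 windows in the table hold none. The longer TGACGTGG, the unfolded protein response element, which contains CGTGG, occurred in 0 of the 44 members and in 0.714% of all genes. GTGGGAA, the core motif bound by the Notch partner RBPJ, occurred in 0 of 44 and in 7.25% of all genes. These matches describe letters in a short window and show no binding.

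On the array level, PB-NICD 1 shared slide 1 with control 1 and control 2, and slide 2 held the other 4 arrays. Notch1 read 0.05, 0.30, 0.84 and 0.67 on control 1 to control 4, whereas PB-NICD 2 had 2.63, PB-NICD 3 had 2.74 and the outlier-marked spot of PB-NICD 1 had 2.47. Heyl, a direct Notch target, was higher on all 3 PB-NICD arrays, by 2.87 ± 0.11 (SE, adjusted p = 3.42e-07). Luminal prostate markers were high on every array, with Pbsn between 9.81 and 11.70 (log2 ratio). PB-NICD 1 needed a correction before use. For a single red spot there, signal minus local background was -47741, and the background model fitted on all spots then moved the median corrected red signal to 299.5, where signal minus background was 35. With 6 such red spots and 2 green spots left out of that fit, and 2 red spots of control 3, the median was 42.8 and PB-NICD 1 correlated with PB-NICD 2 and PB-NICD 3 at r = 0.95 and 0.94 across 10396 features, which are not independent replicates. The fit on all spots compressed the ratios of PB-NICD 1, whose interquartile range was 0.23 against 0.79 to 1.02 on the other arrays, and 0.85 after the correction. Counts under both fits are given below.

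**Figure D1:**
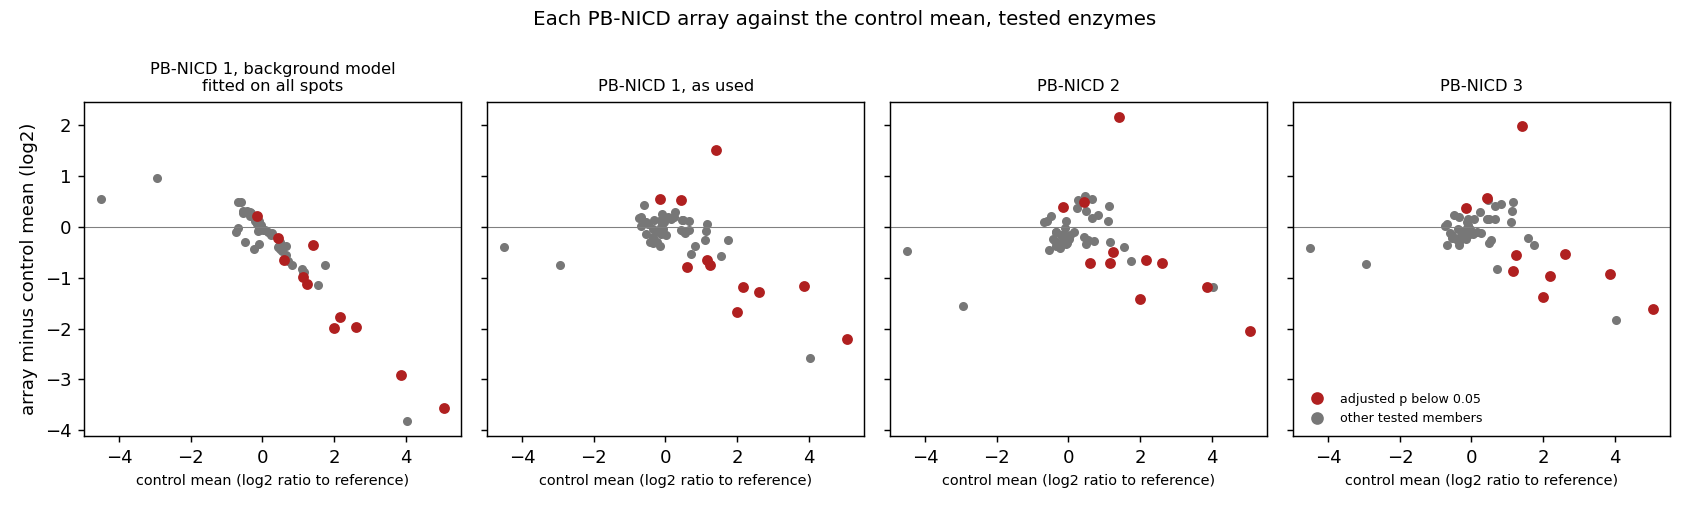
Deviation of each tested member on a PB-NICD array from the control mean (vertical, log2) against the control mean (horizontal, log2 ratio to reference), for PB-NICD 1 under the background model fitted on all spots, PB-NICD 1 as used, PB-NICD 2 and PB-NICD 3. Each point is a gene and red points have adjusted p below 0.05. In the first panel the deviations fall along a line through 0 as ratios are drawn to 0. In the others most members lie near 0, with Man1a, Man2a1 and Fut9 among those far below and Galnt18 far above.

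In PB-NICD prostate, 6 enzymes that act on N-glycans were lower: the mannosidases Man1a and Man2a1, the branching enzymes Mgat2 and Mgat4b, the core fucosyltransferase Fut8 and the galactosyltransferase B4galt1. Other enzymes of the same route did not pass the test, among them Mgat1 and St6gal1. None of the 10 tested sialyltransferases passed, though not all of them act on N-glycans. The chain-extending B3gnt7 and the terminal fucosyltransferase Fut2 were lower as well. Man1a fell by 1.96 ± 0.18 (SE) on the log2 scale, a level 3.88-fold lower, and Man2a1 by 1.49 ± 0.19, 2.81-fold lower. In the other direction Galnt18, a polypeptide GalNAc-transferase family member, was 3.69-fold higher, and B3gnt8 and the lysosomal Man2b2 rose by less. By limma with Benjamini-Hochberg adjustment over 16956 features, 8 of 59 tested members (13.6%) were lower, against 5.06% of all features, and 3 (5.08%) were higher, against 3.59%. The members were read through their own filter on signal, so these shares describe the tested members and not all 68. With control 4, PB-NICD 1 or PB-NICD 2 left out, 5 members were lower (8.47%), against 3.7%, 3.07% and 2.88% of all features. With PB-NICD 1, PB-NICD 2 or PB-NICD 3 left out, 1 was higher (1.69%), against 2.93%, 2.14% and 2.48%, so the share of higher calls was then below that of all features. With the background model fitted on all spots, 4 members, Man1a, Man2a1, Fut8 and Fut2, were lower (6.78%, all features 2.28%) and 0 higher (all features 0.401%). At an unadjusted p under 0.05 by limma, 13 of 59 were lower there and 2 higher, against 11.8% and 3.01% of all features.

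The median change was -0.11 over the members and -0.02 over all features, and 39 of 59 members had a negative change. Without PB-NICD 2 the members' median was -0.05, and within slide 1 it was -0.03 over 50 members, each with -0.02 over all features. All PB-NICD arrays lay below all controls for 21 members (35.6%), against 15.1% of all features, and above them for 5 (8.47%), against 10.5%. Of the 8 called lower, all were well above background in red on every array. Whole tissue was assayed, so fewer cells of a type and less RNA per cell cannot be told apart. Loess removes a trend of ratio with brightness, and median centring in its place moved the median of all features by 0.30 to 0.27. Under it 6 members were lower (10.2%) and 13 higher (22%), against 1.67% (283) and 25.4% (4307) of all features, where loess had 858 and 608. The median of the members then lay 0.11 below that of all features. Man1a, Man2a1 and B3gnt7 were called lower there too, Mgat2, Mgat4b, Fut8 and Fut2 kept a negative change without being called, and B4galt1 turned to 0.11.

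**Figure D2:**
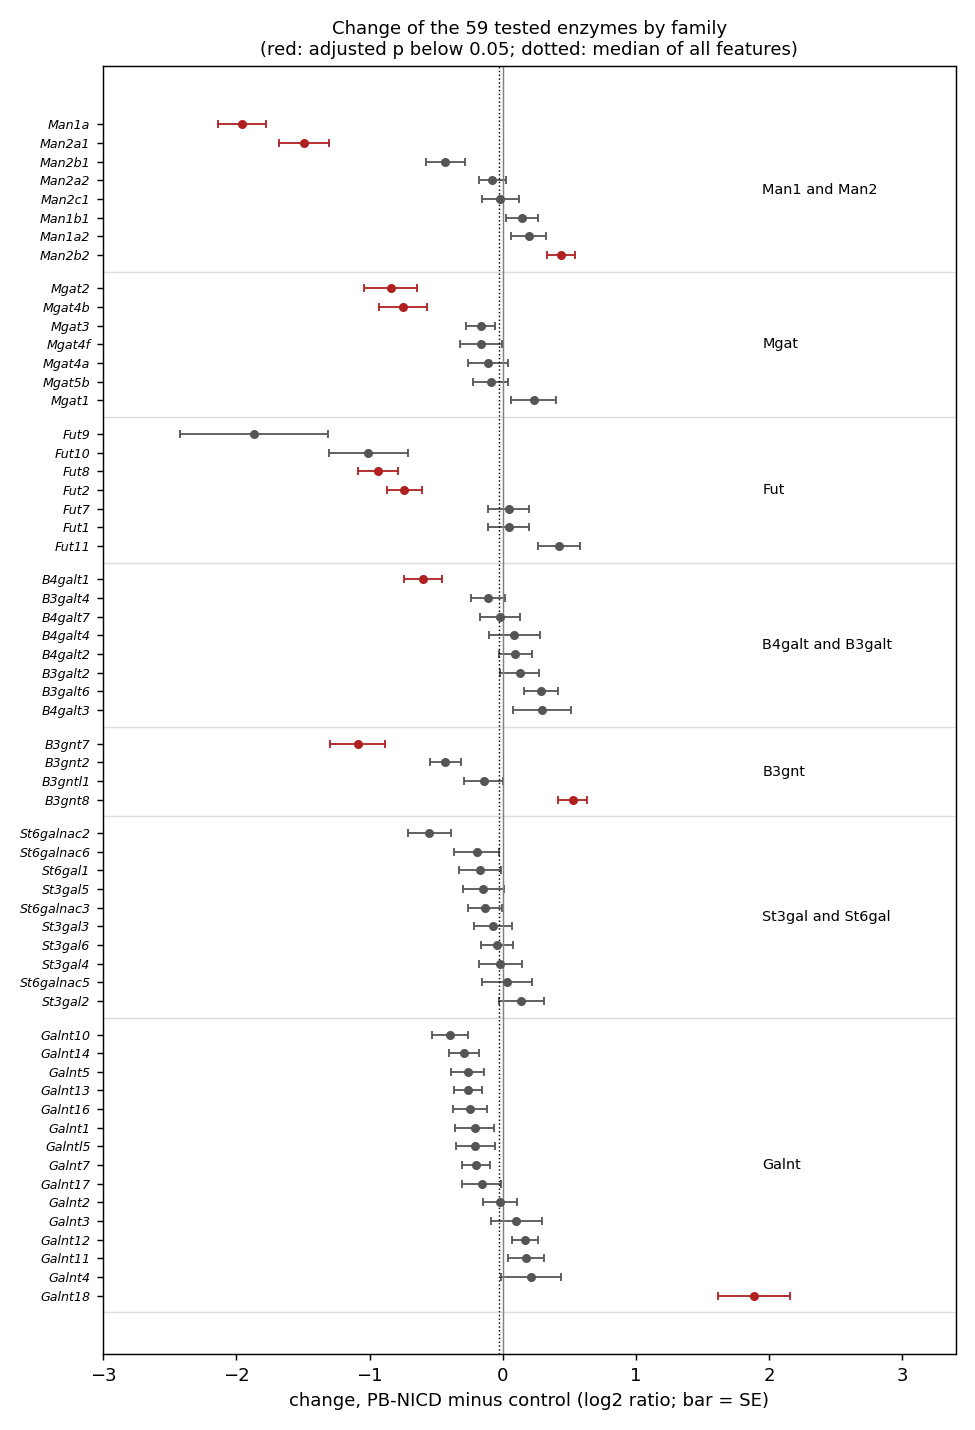
Change in PB-NICD minus control (log2 ratio, bar is the SE) of each of the 59 tested members, grouped by family. Red marks adjusted p below 0.05 and the dotted line is the median of all features, -0.02; Man1a at -1.96 and Galnt18 at 1.88 are the ends of the called range.

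Mannose trimming opens the route in the Golgi, and Man1a was the member with the lowest adjusted p. Man1a read 5.20, 5.13, 4.69 and 5.31 on control 1 to control 4 and 2.87, 3.04 and 3.46 on PB-NICD 1 to PB-NICD 3. The groups were apart by more than 1 log2 unit, and PB-NICD 1, on slide 1, was the lowest array. The change was -1.96 ± 0.18 (SE, adjusted p = 0.000121), -1.97 with slide as a block, -2.29 within slide 1 and -1.75 within slide 2. Slide 1 holds 1 PB-NICD array against 2 controls, so each slide 1 test here and below assumes that this lone array varies like the controls, and gives a value with no replicate of its own. A second Man1a probe gave -1.83 ± 0.42. Man2a1, which acts after Mgat1 has added the first antenna, read 1.91, 1.60, 2.49 and 1.98 in control prostate and 0.32, 0.58 and 0.60 in PB-NICD prostate. Every PB-NICD array was below the lowest control by about 1 unit. The change was -1.49 ± 0.19 (adjusted p = 0.000944), -1.56 with the slide block and -1.43 and -1.64 within slides 1 and 2. Both genes were called lower in each of the 23 alternative analyses in which their values could differ.

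Relatives of both enzymes did not pass the test. Man1a2, which shares the trimming step with Man1a, changed by 0.20 ± 0.13 (adjusted p = 0.443), and Man2a2, the counterpart of Man2a1, by -0.08 ± 0.10 (adjusted p = 0.735). Their 95% intervals ran from -0.10 to 0.49 and from -0.31 to 0.16, and neither interval includes the change of the called relative. Man1b1 stood at 0.15 and Man2c1 at -0.02. Of the lysosomal pair, Man2b1 read 1.70, 1.51, 1.98 and 1.82 in controls and 1.49, 1.08 and 1.40 in PB-NICD prostate, a change of -0.43 ± 0.14 (adjusted p = 0.103). Man2b2 read -0.01, -0.24, -0.15 and -0.24 in controls and 0.38, 0.24 and 0.22 in PB-NICD prostate, and rose by 0.44 ± 0.11 (adjusted p = 0.0326). This small rise was 0.46 with the slide block, 0.51 within slide 1 and 0.42 within slide 2, and neither slide alone passed the test. Leaving out any array but control 1 ended the call, with an adjusted p of at most 0.119. Man2a2, Man2b1, Man1b1, Man1a2 and Man2c1 are named here with values chosen after they were seen, as relatives of the called genes.

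**Figure D3:**
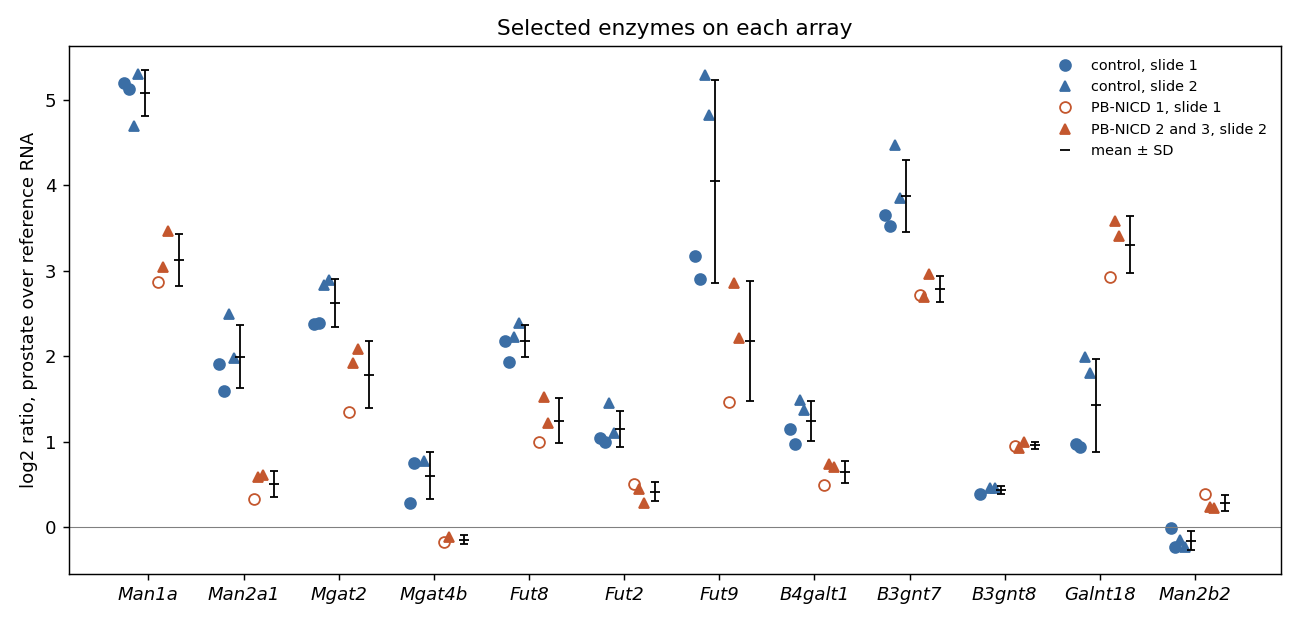
Log2 ratio of prostate over reference RNA (vertical) on each array for the 11 called members and Fut9. Circles are slide 1, triangles slide 2, the open circle is PB-NICD 1, and bars give mean ± SD of each group. Controls and PB-NICD arrays do not overlap for any of these genes, and the 4 controls of Fut9 spread from 2.91 to 5.29.

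Antenna branching was represented by Mgat2, which starts the second antenna and completes the change to a complex glycan. Mgat2 read 2.38, 2.39, 2.83 and 2.89 in controls and 1.34, 1.92 and 2.09 in PB-NICD prostate. Values on slide 2 were higher than on slide 1 in both groups, and no array crossed over. The fall was -0.84 ± 0.20 (adjusted p = 0.0272), -0.93 with slide as a block, and -1.04 and -0.86 within slides 1 and 2. Leaving out PB-NICD 1, PB-NICD 2, control 3 or control 4 ended the call, with an adjusted p of at most 0.0819, as did the background model fitted on all spots (adjusted p = 0.132). Mgat4b adds an antenna by a beta-1,4 bond. It read 0.28, 0.75 and 0.77 on control 1, control 2 and control 4 and -0.18 and -0.11 on the first 2 PB-NICD arrays, the spots of control 3 and PB-NICD 3 being left out as outliers. It fell by 0.75 ± 0.18 (adjusted p = 0.0377), with -0.78 under the slide block and -0.70 within slide 1 (adjusted p = 0.11). Slide 2 held too few values for it. The call was lost when PB-NICD 1, PB-NICD 2, control 2 or control 4 was left out, with an adjusted p of up to 0.143. Mgat1, which adds the first antenna, stood at 0.23, and Mgat3, Mgat4a, Mgat4f and Mgat5b ranged from -0.17 to -0.09, none called.

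Fucosylation split by enzyme. Fut8, the only core fucosyltransferase of N-glycans, read 2.18, 1.93, 2.22 and 2.39 in controls and 1.00, 1.52 and 1.22 in PB-NICD prostate. Its change was -0.93 ± 0.15 (adjusted p = 0.00383), -0.98 with the slide block, -1.06 within slide 1 and -0.93 within slide 2, and a second probe gave -0.90 ± 0.23. Fut2, which adds alpha-1,2 fucose to chain ends and makes the H antigen of secretions, read 1.04, 0.99, 1.46 and 1.10 in controls and 0.51, 0.44 and 0.29 in PB-NICD prostate. It fell by 0.74 ± 0.13 (adjusted p = 0.007), by 0.75 with the slide block and by 0.92 within slide 2, while within slide 1 it changed by -0.51 (adjusted p = 0.171). Its second, less bright probe changed by -0.14 ± 0.17, and the mean of both probes was not called, so the call rests on the brighter probe. Genes of the fucose donor are taken up with the sugar nucleotides below.

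Fut9, which makes the Lewis x structure, had the widest spread of the members. It read 3.17 and 2.91 on control 1 and control 2, 5.29 and 4.82 on control 3 and control 4, and 1.46, 2.86 and 2.21 on PB-NICD 1 to PB-NICD 3. Slide 2 was higher than slide 1 in both groups, and each PB-NICD array was below both controls of its slide. The change was -1.87 ± 0.55 (adjusted p = 0.0684) without a block. Slide as a block gave -2.14 (adjusted p = 0.000119), and the slides taken alone gave -1.58 on slide 1, from 1 PB-NICD array, and -2.52 on slide 2. Its other probes changed by -1.37 ± 0.52 and -1.16 ± 0.33. Fut10 read -2.95, -2.24, -3.61 and -2.99 in controls and -3.69, -4.50 and -3.68 in PB-NICD prostate, far dimmer than the reference. Its change of -1.01 ± 0.30 (adjusted p = 0.067) was 0.01 in the prostate channel taken alone. The Fut10 probe used was well above background on only 2 control and 2 PB-NICD arrays. Another Fut10 probe, well above background on 7 arrays, had too few values once outlier spots were dropped. With those spots kept it stood for the gene, and the change was 0.12. Fut11, Fut1 and Fut7 ranged from 0.04 to 0.42, with none called.

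Galactose is added next, and B4galt1, the main galactosyltransferase of N-glycan antennae, read 1.14, 0.97, 1.48 and 1.37 in controls and 0.49, 0.74 and 0.70 in PB-NICD prostate. It fell by 0.60 ± 0.14 (adjusted p = 0.0271), by 0.65 with the slide block and by 0.71 within slide 2, and changed by -0.56 within slide 1 (adjusted p = 0.139). Its other probes changed by -0.31 ± 0.10 and -0.41 ± 0.13. The call was lost without control 4 or any of the PB-NICD arrays, with an adjusted p of up to 0.0976. It was lost as well with processed signals (adjusted p = 0.0575) and in the prostate channel alone, where the change was -0.37 (adjusted p = 0.259), and B4galt1 was called lower in 13 of 23 alternatives. The remaining galactosyltransferases, B4galt2, B4galt3, B4galt4, B4galt7, B3galt2, B3galt4 and B3galt6, ranged from -0.11 to 0.30 and none was called. B4galt7 and B3galt6 act on the linker of proteoglycans and not on N-glycans, and stood at -0.02 and 0.29.

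Among the enzymes that extend chains, B3gnt7 and B3gnt8 moved in opposite directions. B3gnt7, which elongates keratan sulfate and related chains, read 3.66, 3.52, 4.48 and 3.85 in controls and 2.71, 2.69 and 2.96 in PB-NICD prostate. It fell by 1.09 ± 0.20 (adjusted p = 0.00874), by 1.15 with the slide block, and by 0.88 and 1.34 within slides 1 and 2. B3gnt8, which extends repeats on branched N-glycans, read 0.38, 0.46 and 0.46 on control 1, control 3 and control 4 and 0.95, 0.92 and 1.00 in PB-NICD prostate, with the outlier spot of control 2 left out. The groups were apart and each was narrow. It rose by 0.53 ± 0.11 (adjusted p = 0.0165) and by 0.53 with the slide block; within slide 2 the change was 0.50 (adjusted p = 0.0929), and slide 1 held too few values. It was not called without control 1 or any single PB-NICD array, and the change was 0.29 both in the prostate channel alone (adjusted p = 0.262) and with the background model fitted on all spots (adjusted p = 0.639). B3gnt2, the main enzyme of such repeats, gave opposite signs with its probes: the brighter one in red read -4.27 to -4.65 in controls and -4.90 to -4.98 in PB-NICD prostate, a change of -0.43 ± 0.12 (adjusted p = 0.0516), and the other changed by 0.37 ± 0.25. B3gntl1 stood at -0.14.

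No sialyltransferase was called by limma after adjustment over all features. St6galnac2, which adds sialic acid to the first sugar of O-glycans, was nearest and read 0.50, 0.58, 1.00 and 0.81 in controls and 0.18, 0.44 and -0.11 in PB-NICD prostate. The groups did not overlap, with a change of -0.55 ± 0.16 (adjusted p = 0.067), or -0.59 once slide was a block (adjusted p = 0.0275). The slides taken alone gave -0.36 and -0.74. A second probe changed by -0.01 ± 0.12. St3gal2 to St3gal6, St6gal1, St6galnac3, St6galnac5 and St6galnac6 ranged from -0.20 to 0.14, and the lowest adjusted p among them was 0.573. St6gal1, which caps N-glycan antennae, stood at -0.17.

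O-glycan initiation had 15 tested Galnt members, of which only Galnt18 was called. Galnt18 read 0.97, 0.93, 1.99 and 1.80 in controls and 2.93, 3.58 and 3.41 in PB-NICD prostate. Slide 2 was higher in both groups, and the lowest PB-NICD array was about 1 unit above the highest control. It rose by 1.88 ± 0.27 (adjusted p = 0.002), by 1.75 with the slide block, by 1.98 within slide 1 and by 1.60 within slide 2. With the background model fitted on all spots the change was 1.28 (adjusted p = 0.327). The other 14 ranged from -0.39 for Galnt10 to 0.21 for Galnt4. They were Galnt1 to Galnt5, Galnt7, Galnt10 to Galnt14, Galnt16, Galnt17 and Galntl5, and the lowest adjusted p among them was 0.11. Galnt1, Galnt2 and Galnt3, broadly used starters of O-glycans, stood at -0.21, -0.02 and 0.10.

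More than 1 probe was tested for 11 members, and for 3 of them, Man1a2, Man2c1 and B3gnt2, a probe had the opposite sign. The members without a test were Man1c1, B3galt1, B4galt5, B4galt6, B3gnt3, St6galnac4, Galnt6, Galnt9 and Galnt15. The 11 genes on the array that were not well above background on 3 arrays, and so no members, were Mgat4c, Mgat4d, Mgat5, Fut4, B3galt5, B3gnt4, B3gnt5, B3gnt9, St3gal1, St6galnac1 and Galntl6. For Mgat5, which adds the antenna by a beta-1,6 bond, no level is therefore given.

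The donors of these sugars were followed as a list of 28 tested genes of nucleotide sugar supply, of which 6 (21.4%) were lower and 0 higher, against 5.06% and 3.59% of all features. Gmppb, which makes GDP-mannose, fell by 1.46 ± 0.16 (adjusted p = 0.000321), from 3.22 ± 0.27 (SD, n = 4) to 1.76 ± 0.17 (SD, n = 3), and its partner Gmppa fell by 0.47. Gmds and Gfus, the successive enzymes that turn GDP-mannose into the GDP-fucose used by Fut8 and Fut2, fell by 1.13 ± 0.21 (adjusted p = 0.0088) and 0.89 ± 0.11 (adjusted p = 0.00107). Gfpt1, which opens the hexosamine route to UDP-N-acetylglucosamine, fell by 1.21 ± 0.15, with values on 2 control arrays. Gne, which opens sialic acid synthesis, fell by 0.99 ± 0.17 from 2 arrays a group. Of 15 tested Slc35 genes, 3 (20%) were lower, against 5.06% of all features. They were listed as nucleotide sugar transporters, though not all of them, Slc35b1 included, are established carriers of sugar donors. Slc35a2, the Golgi carrier of UDP-galactose, fell by 2.18 ± 0.35 (adjusted p = 0.00368), Slc35b1 by 1.17 and Slc35c2 by 0.50. With slide as a block the counts lower were 9 for supply and 4 for transporters, against 7.31% of all features. Within slide 2 they were 5 and 0, against 3.34%, and within slide 1, with its 1 PB-NICD array, 3 and 3, against 3.16%. Without PB-NICD 1 they were 4 and 2, against 3.07%, and with the background model fitted on all spots 2 and 2, against 2.28%.

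A list of N-glycan trimming and quality control had 6 of 18 tested genes lower (33.3%) and 0 higher, against 5.06% and 3.59% of all features. Most of its genes handle the N-glycan before the Golgi. Manba, Gnptab, Gnptg, Nagpa, Ngly1 and Engase act later or elsewhere, and none of these was called. Edem1 and Edem2, which mark misfolded glycoproteins for disposal, fell by 1.64 ± 0.13 and 1.40 ± 0.14. The lectin chaperones Calr and Canx fell by 1.31 ± 0.12 and 0.68 ± 0.15, for Canx from 2 arrays a group. Lman1 and Mcfd2, the receptor pair that carries glycoproteins to the Golgi, fell by 1.32 ± 0.13 and 1.84 ± 0.15 (adjusted p = 7.19e-05). The count was 8 with the slide block (7.31% of all features), 6 within slide 2 (3.34%), 4 within slide 1 with its 1 PB-NICD array (3.16%), and 5 with the background model fitted on all spots (2.28%). Golgi structure genes gave 1 lower among 18 (5.56%, all features 5.06%), Gorasp2 (-0.81 ± 0.18), a stacking protein. Among 7 subunits of the COG tethering complex 0 were called, and Cog6 was nearest (-0.43 ± 0.13, adjusted p = 0.0817). Gorasp2 was no longer called when control 2, control 4, PB-NICD 1 or PB-NICD 3 was left out. In a list of 28 further glycosyltransferases and sulfotransferases, 1 was lower and 1 higher (3.57% each, all features 5.06% and 3.59%). Tpst1, a tyrosine sulfotransferase, fell by 0.62, a call that was lost without control 1, 2 or 4 or without either of PB-NICD 1 and 2. B4galnt2, which adds N-acetylgalactosamine to sialylated chains, rose by 2.18 ± 0.15 (adjusted p = 1.99e-05), from 0.19 ± 0.17 (SD, n = 4) to 2.37 ± 0.26 (SD, n = 3).

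**Figure D4:**
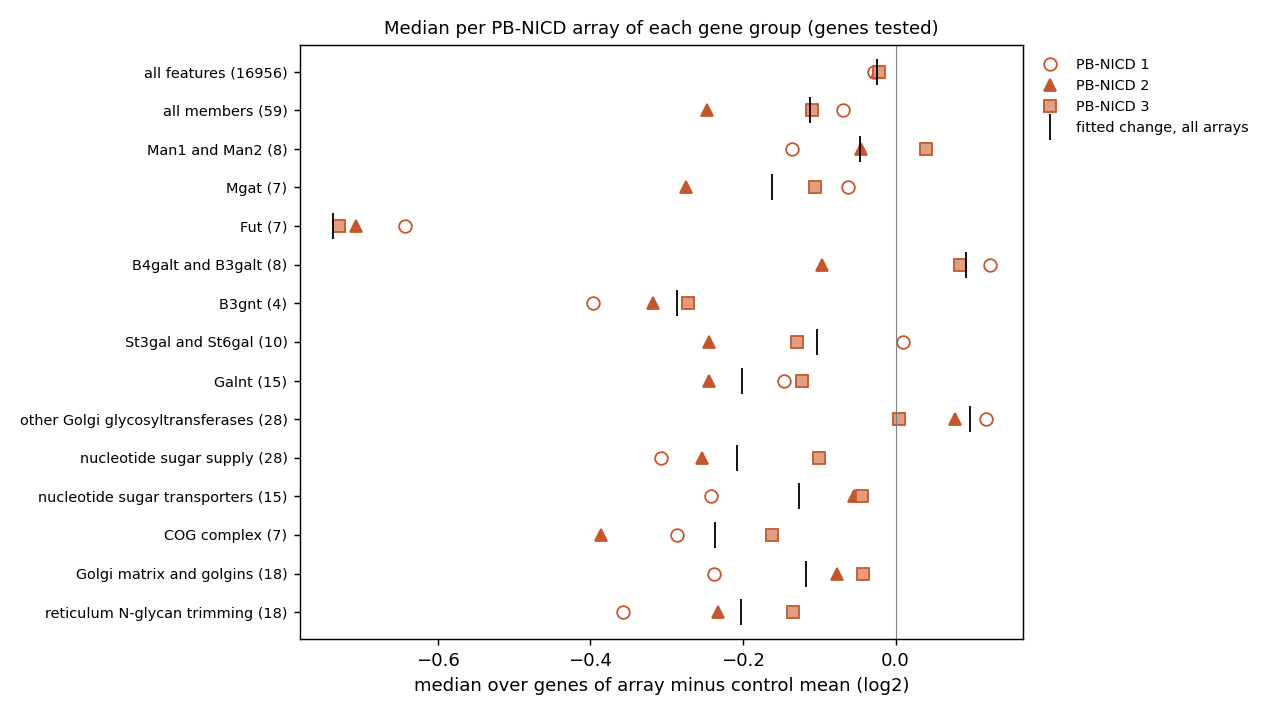
Median over genes of the deviation from the control mean (log2) on PB-NICD 1 (open circles), PB-NICD 2 (triangles) and PB-NICD 3 (squares), with the median fitted change (bars), for all features, all members, the 7 families and 6 further lists; the number tested is in brackets. The fucosyltransferase family, with 7 members, has the lowest median, -0.74. Its median was 0.01 in the prostate channel alone and 0.09 with outlier spots kept.

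Markers of other cells were read beside these changes, and their part in them was not tested. The marker lists are short, and of all features 5.06% were called lower and 3.59% higher. Among 6 basal cell markers, 3 were lower, Krt5 by 1.74 ± 0.16, Krt15 by 1.17 ± 0.18 and Itga6 by 0.55 ± 0.12, while the summed background-corrected red signal of the list was 2056 to 4111 in controls and 2173 to 2825 in PB-NICD prostate. Of 8 luminal markers Cd24a was lower, by 2.00 ± 0.31 from 2 arrays a group, and the summed signal was 40723 to 82099 and 39191 to 78587. All 6 smooth muscle markers had a negative change, from -0.70 to -0.29 with a median of -0.48, and only Actg2 was called, lower by 0.44. Their sums were 27987 to 58007 in controls and 50595 to 65690 in PB-NICD prostate. Among 3 tested urothelium markers Upk3a was higher, by 5.11 ± 0.42 from 2 arrays a group, while Upk1b changed by -0.56 and Upk2 by 0.0048, with sums of 1008 to 1938 and 5115 to 8276. Fibroblast, endothelial and leukocyte lists had 0 calls by limma among 4, 2 and 3 tested genes. Their sums were 9915 to 17642 and 21571 to 27044 for fibroblasts, 296 to 354 and 333 to 428 for endothelium, and 1586 to 3625 and 2408 to 4984 for leukocytes. Each sum includes the offset of 50, added in background correction, for every gene in it. The sums run over all listed genes on the array, tested or not: 5 for fibroblasts, 4 for endothelium, 4 for leukocytes and 5 for urothelium. These sums are not scaled between arrays, and the median red signal was 69 to 87.5 on control arrays and 88 or more on PB-NICD arrays. Seminal vesicle secretion was present unevenly: Svs4 read 9.39 on control 2, 5.75 on PB-NICD 1, 2.36 on control 1 and between -0.28 and 0.71 on the other arrays. Without control 2, 8 members were lower and 2 higher, against 3.99% and 2.6% of all features; without PB-NICD 1 the counts were 5 and 1, as given above.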

How the data were processed

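The deposited spot intensity values come from Agilent's Feature Extraction software, version 10.7.3.1, per the file headers; the median spot and background signals used here are not normalized. The deposited LogRatio column is log10 of red over green processed signal, per the file headers, and was used only to check the direction of the ratio. A value table from the authors, used as an alternative, holds log2 values centred near 0 (column medians -0.0112 to -0.0044) of unknown normalization, and its columns correlated with their own arrays at r = 0.777 to 0.882 across probes.

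In limma 3.58.1 under R 4.3.3, normexp (offset 50) was applied to the median signals, with its parameters fitted without spots more than 30 units below local background, then loess within arrays with control spots at weight 0. This exclusion was chosen after seeing the data, because the fit on all spots failed on PB-NICD 1; that fit is kept as an alternative. Outlier spots were set to missing and spots of a probe averaged. Tested probes needed a red mark of well above background on 3 or more arrays and 2 or more values in each group, and the probe brightest in red stood for its gene. Accessions were matched without versions to RefSeq (GRCm38.p6), naming 24375 of 41174 probes. The files use an older build, so coordinates are given for promoter sequences only, on GRCm38.p6. Groups were compared with lmFit and eBayes in a model of group alone (two-sided), and p-values were adjusted by Benjamini-Hochberg across 16956 features, with a threshold of 0.05. The offset understates changes of dim genes. In red, 44.9% to 66.8% of probes per array stood well above background, no spot was saturated, and the number of arrays limits the precision. The comparison was tested on simulated data.

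The members and gene lists were chosen with earlier results of these data known. Named with values are all called members, members with adjusted p from 0.05 to 0.1 and the member of each family with the lowest adjusted p, and from the pathway lists all called genes or, where none was called, the one with the lowest adjusted p; others given as single values were chosen after their values were seen. Alternatives changed the background correction, normalization, channel, filters, probes, slide, replicate pairing and samples left out.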

Additional observations from a re-analysis of the deposited data

How the results depend on the processing

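Man1a and Man2a1 were called lower in all 23 alternatives that could differ, and Fut8, B3gnt7 and Galnt18 were called in 22 each. The counts lower and higher, 8 and 3 in the report, were within 1.5 times except in these cases. With the replicate block 1 was higher (1.69%, all features 3.03%). The authors' value table, in which the slide difference of controls (median size 0.08) was smaller than here (0.17), gave 15 lower (25.4%, all features 11.4%), and slide as a block gave 13 lower (22%, all features 7.31%). The normexp fit on all spots, an alternative added after seeing the data, gave 4 lower and 0 higher (all features 2.28% and 0.401%). Median centring gave 13 higher (22%, all features 25.4%). Within slide 1, whose PB-NICD arm is 1 array, and within slide 2, 1 was higher (2% and 1.92%, all features 2.72% and 2.3%). Leaving out each array in turn gave 5 to 9 lower and 1 to 2 higher, where all features gave 2.88% to 4.86% lower and 2.14% to 3.86% higher, with fewest lower without control 4, PB-NICD 1 or PB-NICD 2 (5 each) and fewest higher without any single PB-NICD array (1 each, 1.69%).

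Family medians rest on 4 to 15 genes and moved more. For fucosyltransferases (reported -0.74) the median was -0.34 with processed signals, -0.85 at offset 16, -0.31 with median centring, 0.0063 in the prostate channel alone, 0.0895 with outlier spots kept, -0.47 with normexp on all spots, -0.44 with the mean of probes, and -0.51 and -0.85 within slides 1 and 2. For B3gnt (reported -0.29) these were -0.096, -0.20, 0.39 and 0.0375 in the first 4 settings, -0.14 with normexp on all spots, -0.62 with the mean of probes, -0.70 within slide 1 and -0.38 with the replicate block. For Galnt (reported -0.20) it was -0.0933 with processed signals, 0.34 with median centring, -0.11 in the prostate channel alone, -0.0882 with the filter on all 7 arrays and -0.0594 with normexp on all spots. Median centring gave 0.17 over all members, 0.43 for mannosidases, 0.0663 for Mgat and 0.16 for sialyltransferases, against its own median of 0.27 over all features. Mgat was -0.0669 within slide 1 and -0.27 with the replicate block, sialyltransferases 0.0221 within slide 1, and mannosidases and galactosyltransferases -0.15 and -0.075 with normexp on all spots. Single genes reversed as follows: B4galt1 to 0.11 and B3gnt2 to 0.26 with median centring, Fut10 to 0.0063 and B3gnt2 to 0.0178 in the prostate channel alone, and Fut10 to 0.12 with outlier spots kept. The cause of these differences was not tested, except that normexp on all spots moved PB-NICD 1 as described. With outlier spots kept, another Fut10 probe, well above background on 7 arrays, stood for that gene. Aquantile scaling leaves ratios within an array as they are, so it could not differ.

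The labels number replicates in both groups. Deviations of same-numbered samples correlated at 0.32, -0.24 and 0.08. PB-NICD 1 correlated at 0.32 and 0.36 with control 1 and control 2 of its slide, and at -0.31 and -0.38 with control 3 and control 4. The signs follow slide, so these correlations cannot tell whether same-numbered samples were paired. With the replicate block 6 members were lower (10.2%, all features 3.67%) and 1 higher (1.69%, all features 3.03%). B4galt1, Mgat4b, B3gnt8 and Man2b2 were not called there.

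Signal over background limits dim genes: 41 of 59 tested members were well above background in red on all 7 arrays. The Fut10 probe used was so on 2 control and 2 PB-NICD arrays. Over all features the count called, 1466 in the report, was 3210 in the authors' value table, 4590 with median centring, 455 with normexp on all spots, 830 and 872 within slides 1 and 2, and 851 without PB-NICD 2. The slide block added Fut9, St6galnac2, Fut10, B3gnt2 and Galnt10 to the genes called lower.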
